A study of Mus musculus with 36 samples.

Results

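The genes described here are 9 genes that naive and memory T cells use to keep their state and to move between blood, lymphoid organs and tissue. They are the transcription factor genes *Tcf7*, *Lef1*, *Bach2*, *Klf2* and *Id3*, and the receptor genes *Ccr7*, *S1pr1*, *Il7r* and *Slamf6*. They were chosen by name from what is known of T cells, with earlier results of these data known. All 9 were found among the 24781 genes of the deposited count table. The table holds 36 digital RNA-seq libraries from MC38 tumours, a mouse colon cancer line, taken on day 7 after inoculation. Each library was made from 100 sorted cells of 1 mouse, and each group holds 6 libraries.

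CD45+TCRβ+CD8+ T cells and CD45+CD11b+F4/80 high tumour-associated macrophages (TAMs) were sorted from 3 kinds of mice. The first were wild-type (WT) mice, and the second were *muMt*-/- mice, which lack mature B cells. The third were *muMt*-/- mice with an implanted pellet that releases GABA, known best as an inhibitory neurotransmitter, with no dose in the labels. For the first and second kinds the labels give the treatment as none, where the study describes a placebo pellet. The comparisons ask whether the absence of B cells, or GABA supplied in their absence, went with other levels of these genes in T cells, and how TAMs compare. The libraries of CD8+ T cells held 22896 to 76898 molecules in WT mice, 51064 to 77839 in *muMt*-/- mice and 65356 to 98015 in GABA-treated *muMt*-/- mice. Those of TAMs held 206394 to 304100, 100254 to 253608 and 151856 to 262606 molecules.

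A naive T cell reads self ligands and the cytokine IL-7, circulates through lymph nodes and expresses genes of this kind at a high level. When it meets antigen and becomes an effector cell most of these genes are turned down, while memory cells and the stem-like cells found in tumours keep or regain part of the set. In macrophages several of the same genes have other uses, so their transcripts are not confined to T cells.

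The sorted populations were checked against marker genes. Of 10 CD8 T cell markers, 10 were detected in CD8+ T cells, at a summed level of 146 to 535 molecules per 100000 molecules of the library, with *Cd8a* the most abundant at 722 molecules in all. In TAMs the same 10 markers came to 42 molecules over 18 libraries and to at most 3.83 per 100000. All 20 macrophage markers were detected in TAMs, at 1170 to 2131 per 100000. Of the B cell markers, *Cd79a*, *Pax5* and *Blk* were at 0 in all 36 libraries, WT mice included, so these libraries hold no reading of the B cell loss itself.

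Among the transcription factor genes, *Tcf7* encodes TCF-1, the factor that marks naive, memory and stem-like CD8+ T cells (GRCm38, the build also called mm10, chromosome 11, 52252371 to 52283014). Its level in CD8+ T cells was 3.96, 21.6 and 52.5 molecules per 100000 in WT mice (lowest, median and highest of 6 libraries), 8.66, 18 and 24.6 in *muMt*-/- mice, and 15.3, 17.8 and 26 in GABA-treated mice. These levels rest on 60, 68 and 93 molecules in the 3 groups. The WT libraries were the most spread, and held both the lowest and the highest of the 18 values. *Lef1*, which encodes the related factor LEF-1 (chromosome 3, 131110471 to 131224356), stood at 3.96, 9.46 and 18.5 per 100000 in WT mice, 3.92, 5.68 and 12.6 in *muMt*-/- mice and 2.04, 5.76 and 8.4 in GABA-treated mice. *Bach2* encodes a repressor that restrains effector genes (chromosome 4, 32238804 to 32586108), and stood at 3.09, 4.58 and 13.1, then 2.89, 6.02 and 10.4, then 1.45, 3.62 and 6.12 per 100000 in the same order of groups. The ranges of the 3 groups overlapped for all of these factors. *Klf2*, whose product drives the exit of T cells from tissue through *S1pr1* (chromosome 8, 72319033 to 72321656), stood at 5.2, 15.6 and 61.1 per 100000 in WT mice, 5.77, 13.6 and 26.8 in *muMt*-/- mice, and 17.3, 22.5 and 29.8 in GABA-treated mice. *Id3*, whose product holds back E proteins in naive and memory cells (chromosome 4, 136143497 to 136145755), was close to the limit of counting, with 11 molecules in 7 of the 18 libraries of CD8+ T cells. Of these, 4 came from *muMt*-/- replicate 3, which was the single library of its group with any.

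Among the receptor genes, *Ccr7* encodes the chemokine receptor that guides T cells into lymph nodes (chromosome 11, 99144196 to 99155077). It stood at 21.6, 24.9 and 55.4 molecules per 100000 in CD8+ T cells of WT mice, 12.3, 23.5 and 36.2 in *muMt*-/- mice and 9.18, 23.5 and 39.1 in GABA-treated mice. The medians lay close together and the ranges overlapped, with 3 of 6 libraries of each kind of *muMt*-/- mice below all WT libraries. *S1pr1* encodes the sphingosine-1-phosphate receptor that lets T cells leave tissue (chromosome 3, 115710433 to 115715072), and stood at 3.96, 6.66 and 12.3, then 1.57, 6.08 and 15.4, then 2.04, 6.6 and 10.1 per 100000, from 18, 28 and 30 molecules. *Il7r* encodes the alpha chain of the IL-7 receptor, a survival receptor of naive and memory cells (chromosome 15, 9505788 to 9530176). Its levels were 16.9, 29.8 and 37 per 100000 in WT mice, 12.8, 21.6 and 31.3 in *muMt*-/- mice, and 10.2, 27.8 and 38.3 in GABA-treated mice. The *Il7r* and *S1pr1* values of all 3 groups overlapped. *Slamf6* encodes a surface receptor used to sort stem-like T cells (chromosome 1, 171917515 to 171953170), and was counted at 0 to 4 molecules per library in WT mice, 0 to 8 in *muMt*-/- mice and 0 to 4 in GABA-treated mice. An antisense gene in the table overlaps *Slamf6* (*Gm37065*, 25 molecules in CD8+ T cells and 27 in TAMs), and another overlaps *Bach2* (*Bach2os*, 3 and 43 molecules).

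**Figure D1:**
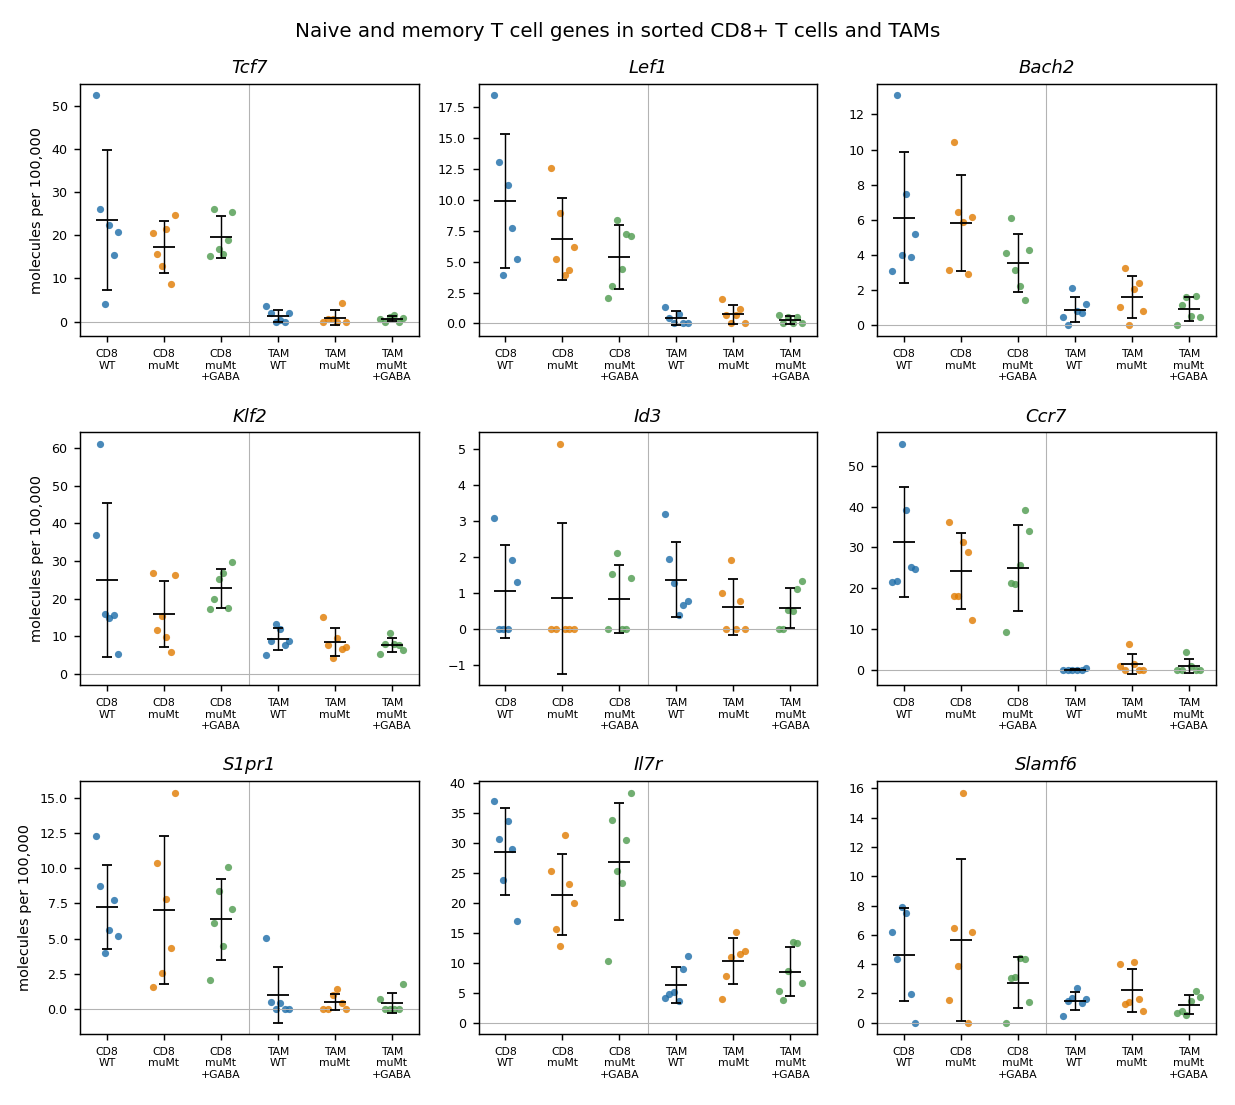
Each point is the level of a gene in 1 library, in molecules per 100000 molecules of the library, with 6 libraries in each of 3 groups of CD8+ T cells and 3 of TAMs, and the bars give the mean ± SD. In CD8+ T cells the groups overlap in all 9 panels, and *Ccr7*, *Tcf7* and *Lef1* lie above TAMs in every pair of matching groups.

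By mean level in CD8+ T cells, *Tcf7*, *Klf2*, *Ccr7* and *Il7r* ran in the order WT, GABA-treated *muMt*-/-, *muMt*-/-. For *Il7r* the means were 28.5 ± 7.22, 26.8 ± 9.81 and 21.3 ± 6.7 per 100000 (SD, n = 6). *Lef1*, *Bach2*, *S1pr1* and *Id3* ran in the order WT, *muMt*-/-, GABA-treated *muMt*-/-, with *Lef1* means of 9.95 ± 5.45, 6.86 ± 3.34 and 5.38 ± 2.57. *Slamf6* ran *muMt*-/-, WT, GABA-treated *muMt*-/-. For all 9 genes, neighbours in these orders differed by less than the larger of their SDs. Summed over the members, the level was 84.5 to 191 per 100000 in WT mice, 78 to 128 in *muMt*-/- mice and 60.2 to 149 in GABA-treated mice. In sorted cells a lower level can mean fewer T cells of a naive or memory kind, or less of these RNAs per cell. It can also mean more RNA of other cells in the library, and these cannot be told apart.

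Tests of the differences used the quasi-likelihood test of edgeR over all genes with a mean normalized number of molecules above 1, and called a gene where its p-value, adjusted over all of them by Benjamini-Hochberg, was under 0.05. In CD8+ T cells 8 of the 9 members passed this filter, and *Id3* did not. The comparisons of both kinds of *muMt*-/- mice with WT mice share the WT libraries. Without B cells, 0 of 8 members were called by edgeR, against 0 of 6663 tested genes (0%), 0 of 8 had an unadjusted p under 0.05, against 6.17% of tested genes, and DESeq2 called 0 members, against 0%. The log2 fold changes of the members ran from -0.32 for *Tcf7* to 0.52 for *Slamf6*, with 5 below 0 and 3 above. The median of all tested genes was 0.15 under this scaling and 0.06 under DESeq2 size factors, and that of the members was -0.25. The 95% interval of the fold, *muMt*-/- over WT, was 0.495 to 1.29 for *Tcf7*, 0.541 to 1.26 for *Il7r* and 0.56 to 3.69 for *Slamf6*. *Bach2* and *S1pr1* were fitted at 0.15 and 0.12 while their means per 100000 were lower than in WT mice, and *S1pr1* was at -0.01 in DESeq2.

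With GABA in place of the placebo in *muMt*-/- mice, 0 of 8 members were called in CD8+ T cells by edgeR (0% of tested genes), 0 had an unadjusted p under 0.05 (3.71% of tested genes), and DESeq2 called 0 (0%). The log2 fold changes ran from -0.89 for *Slamf6* (SE 0.62) to 0.56 for *Klf2* (SE 0.36), with *Il7r* at 0.38 (SE 0.28) and *Bach2* at -0.68 (SE 0.45). For *Klf2*, 1 of 6 GABA-treated libraries lay above all 6 libraries without GABA, and for *Bach2* 2 of 6 lay below all of them. Between GABA-treated *muMt*-/- and WT mice edgeR again called 0 of 8 members (0% of tested genes), with 0 at an unadjusted p under 0.05 (6.89% of tested genes), and DESeq2 called 0 (0.015%). *Lef1* was at -0.63 (SE 0.44) and *Klf2* at 0.28 (SE 0.37), or 0.02 in DESeq2, where the median of all tested genes was 0.21 with TMM and 0.06 with size factors. The *Klf2* mean was 22.7 per 100000, below the 24.9 of WT mice. *Il7r* and *S1pr1* were at 0.10 and 0.00, and at -0.08 and -0.15 with size factors.

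**Figure D2:**
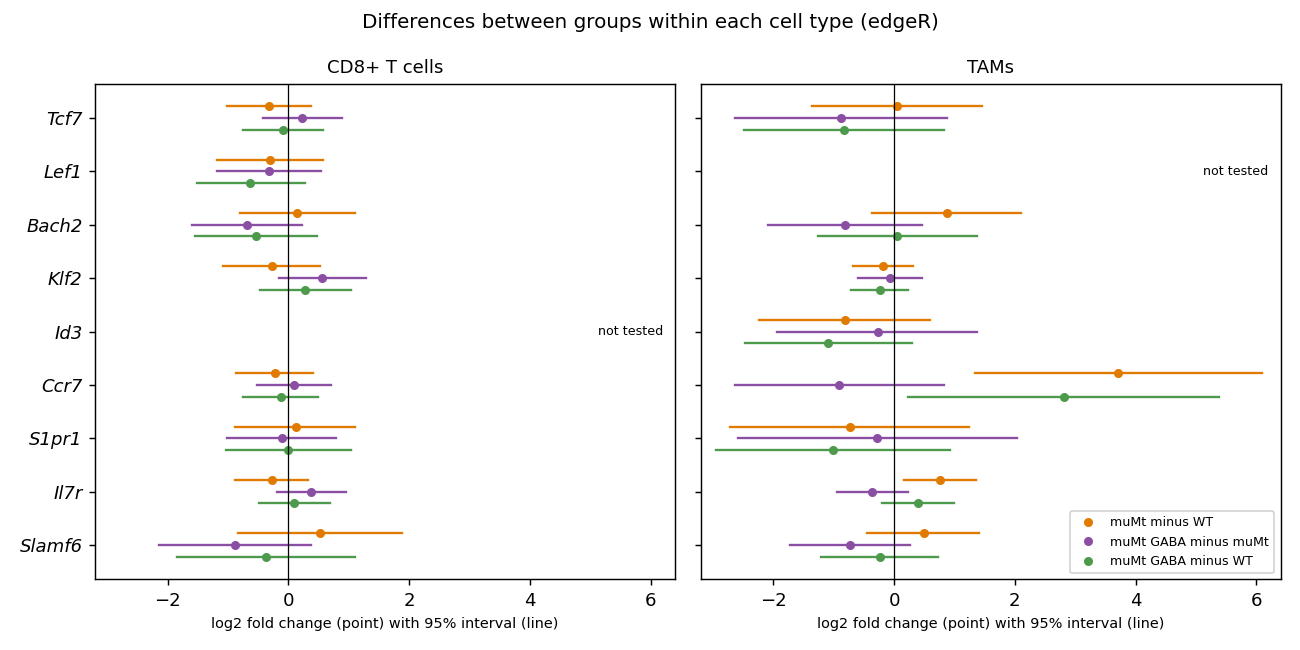
Log2 fold changes of the members (points) with their 95% intervals (lines), from edgeR, for 3 comparisons between groups of 6 libraries in CD8+ T cells and in TAMs. In CD8+ T cells all intervals span 0, and in TAMs those of *Ccr7* in both comparisons with WT mice, and of *Il7r* in *muMt*-/- against WT mice, do not.

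Macrophage markers differed between the same groups of CD8+ T cell libraries. All 20 were detected in the libraries of *muMt*-/- and GABA-treated *muMt*-/- mice, and 17 of 20 in those of WT mice, where *Adgre1*, *Mrc1* and *Mertk* were at 0. Their summed level was 0 to 199 per 100000 in WT mice, 97.4 to 861 in *muMt*-/- mice and 21.7 to 514 in GABA-treated mice. Of 17 tested, 17 were higher in both kinds of *muMt*-/- mice than in WT mice and 12 had an unadjusted p under 0.05 in each comparison (6.17% and 6.89% of all tested genes did), while edgeR called 0. In *muMt*-/- replicate 1 the sum reached 46.4% of the median TAM level, and in the other libraries of that group 5.25% to 15.9%. In WT mice it reached 0% to 10.7%, and in GABA-treated mice 1.17% to 27.7%, highest in replicate 1. Summed CD8 T cell markers were 260 to 535 per 100000 in WT mice. They were lowest in replicate 1 of *muMt*-/- and of GABA-treated mice, at 151 and 146, where the members summed to 128 and 60.2. Whether macrophage RNA lowered the share of T cell RNAs was not tested. The shares that follow are pooled over the 6 libraries of a group and do not hold for each library. At the level of each gene in TAMs, RNA in these proportions would carry 5.78% of the *Il7r* molecules and 7.22% of the *Klf2* molecules counted in CD8+ T cells of *muMt*-/- mice, and 0.485% of those of *Tcf7*. The largest shares were those of *Id3*, 10.6% in *muMt*-/- mice and 12.5% in GABA-treated mice, each of 4 molecules, and of *Slamf6*, 7.87% of 13 molecules in GABA-treated mice.

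In TAMs the factor genes were sparse apart from *Klf2*, which plays a part in quieting macrophages. *Klf2* stood at 5.01, 8.71 and 13.2 molecules per 100000 in WT mice, 4.3, 7.5 and 15 in *muMt*-/- mice, and 5.27, 7.84 and 10.8 in GABA-treated mice. *Bach2* stood at 0, 0.728 and 2.13, then 0, 1.53 and 3.24, then 0, 0.822 and 1.64 per 100000. *Id3* ranged from 0.399 to 3.19 per 100000 in WT mice, from 0 to 1.91 in *muMt*-/- mice and from 0 to 1.33 in GABA-treated mice. The groups overlapped for all 3 genes. *Lef1* came to 16 molecules in 10 of 18 TAM libraries and was not tested. *Tcf7* came to 39 molecules in 11 of 18, and 11 of the 13 molecules of *muMt*-/- mice were in replicate 5.

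Among the receptors in TAMs, *Il7r* stood at 3.59, 4.98 and 11.1 molecules per 100000 in WT mice, 3.99, 11.2 and 15.1 in *muMt*-/- mice and 3.81, 7.63 and 13.5 in GABA-treated mice, from 95, 105 and 100 molecules. *Slamf6* stood at 0.456, 1.52 and 2.39, then 0.803, 1.51 and 4.12, then 0.538, 1.13 and 2.19 per 100000. *Ccr7* was counted once in the 6 libraries of WT mice, 16 times in those of *muMt*-/- mice and 10 times in those of GABA-treated mice, and *S1pr1* 13, 5 and 5 times. *Il7r* was read in all 18 TAM libraries, *Ccr7* in 6 and *S1pr1* in 8. Of the *Ccr7* molecules, 13 of 16 were in *muMt*-/- replicate 3 and 8 of 10 in GABA-treated replicate 3, and 11 of the 13 *S1pr1* molecules of WT mice were in replicate 1. By mean level, *Tcf7*, *Klf2*, *Id3* and *S1pr1* were highest in WT mice, and *Lef1*, *Bach2*, *Ccr7*, *Il7r* and *Slamf6* in *muMt*-/- mice. GABA-treated mice came lowest for *Tcf7*, *Lef1*, *Klf2*, *Id3*, *S1pr1* and *Slamf6* and in the middle for the others. Neighbours in each order differed by less than the larger of their SDs. Summed over the members, TAMs held 19.1 to 25.7, 20.9 to 34.3 and 13.2 to 28 molecules per 100000.

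In TAMs, 8 of 9 members were tested, *Lef1* being below the filter. Between *muMt*-/- and WT mice edgeR called 0 of 8, against 2.05% of 9469 tested genes, while DESeq2, which called 2.67% of tested genes, gave an adjusted p to 2 of 8 members, *Il7r* (0.186) and *Klf2* (0.861). At an unadjusted p under 0.05 there were 2 members, *Ccr7* and *Il7r*, against 14.9% of tested genes. *Il7r* was at a log2 fold change of 0.76 (SE 0.29, 95% interval 0.16 to 1.35), with 3 of 6 *muMt*-/- libraries above all WT libraries and an edgeR adjusted p of 0.187, which ran from 0.0851 to 0.426 over the alternatives. *Il7r* is on the list of TNF targets in TAMs that the study drew up from these samples, so that list is not independent evidence on *Il7r*. Of the monocyte markers in the same comparison, 5 of 5 were detected, 5 of 5 were at a positive log2 fold change and 2 were called by edgeR. Their summed level was 141 to 194 per 100000 in WT mice, 139 to 327 in *muMt*-/- mice and 174 to 239 in GABA-treated mice, with *Ccr2* the most abundant. TAMs were sorted as F4/80 high cells, and the part of monocytes in the *Il7r* value was not tested.

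*Ccr7* was fitted at a log2 fold change of 3.71 in TAMs of *muMt*-/- mice against WT mice (SE 1.17), a value that depends on the prior count where WT mice hold a single molecule. The ratio of the counts was 23.8, with a 95% counting interval of 3.7 to 998. Its edgeR adjusted p was 0.0864, with 3 of 6 *muMt*-/- libraries above all WT libraries, and ran from 0.00391 without a filter to 0.157. It was 0.0448 without *muMt*-/- replicate 5, and without *muMt*-/- replicate 3 *Ccr7* fell below the filter and had no value. That library also held 9 molecules of *Ccl22*, 5 of *Ccl17* and 10 of *Fscn1*, dendritic cell genes. The 10 dendritic cell markers summed to 3.88 to 8.65 per 100000 in WT mice, 2.41 to 22.7 in *muMt*-/- mice and 4.95 to 12.5 in GABA-treated mice. The 4 libraries with the highest sums were *muMt*-/- replicates 4 and 3 (22.7 and 13.9) and GABA-treated replicates 1 and 3 (12.5 and 12.4), which held 2, 13, 0 and 8 molecules of *Ccr7*. The most abundant were *Fscn1* in WT and GABA-treated mice and *Ccl17* in *muMt*-/- mice, and *Zbtb46* was at 0 in WT and *muMt*-/- mice. Of the 3 tested, 1, *Ccl17*, was called (edgeR adjusted p 0.00659), against 2.05% of all tested genes. Of its 40 molecules in *muMt*-/- mice, 25 were in 1 library, which was not replicate 3. In *muMt*-/- and WT mice the means per 100000 were 4.04 and 0.0808 for *Ccl17*, 1.13 and 0.137 for *Ccl22*, and 1.83 and 3.99 for *Fscn1*, which ran the other way. TAMs were sorted as F4/80 high cells, and the part of dendritic cells in the *Ccr7* count was not tested.

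Between GABA-treated and untreated *muMt*-/- mice, the 8 tested members in TAMs had log2 fold changes of -0.91 (*Ccr7*) to -0.06 (*Klf2*), all below 0, where the median of all tested genes was 0.06. By edgeR 0 of 8 were called (0.0211% of tested genes) and 0 had an unadjusted p under 0.05 (8.46%). DESeq2 called 0.634% of tested genes and gave no member an adjusted p, and 0 of 8 had an unadjusted p under 0.05 in it (6.13% of tested genes). *Tcf7* stood at -0.88 and turned to 1.12 without *muMt*-/- replicate 5, and *Klf2*, *S1pr1* and *Id3* also turned above 0 in fits without 1 library. *Ccr7* was at -2.72 without GABA-treated replicate 3. Against WT mice, edgeR called 0 of 8 in GABA-treated mice (0.0739%), and *Ccr7* alone had an unadjusted p under 0.05 (7.02% of tested genes). DESeq2 called 0.148% of tested genes, gave no member an adjusted p and had 0 of 8 at an unadjusted p under 0.05 (4.65% of tested genes). The *Ccr7* ratio of counts was 12.2 with a counting interval of 1.73 to 528, and its fitted log2 fold change was 2.81, or 0.99 without GABA-treated replicate 3. *S1pr1* was at -1.01 and *Id3* at -1.09 (SE 0.96 and 0.68), and *S1pr1* at -2.54 without GABA-treated replicate 6. WT replicate 1, which held most of the *S1pr1* molecules, 7 of *Id3* and 8 of *Tcf7*, also held 31.4 endothelial marker molecules per 100000 against 1.19 to 1.64 in the other WT libraries. Its endothelial molecules were 22 of *Cdh5*, 21 of *Pecam1*, 15 of *Egfl7*, 7 of *Emcn* and 4 of *Kdr*, with *Tek* at 0. The sort was for CD45+CD11b+F4/80 high cells, and the part of endothelial cells in the *S1pr1* value was not tested.

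Whether the change without B cells differed between CD8+ T cells and TAMs was tested as an interaction in all 36 libraries, in which 8 members were tested. By edgeR 0 of 8 were called (0.0118% of 8477 tested genes), and 2 had an unadjusted p under 0.05 (10.1%), both with the lower value in CD8+ T cells. These were *Ccr7*, with a difference of log2 fold changes of -3.66 (SE 1.09), and *Il7r*, with -1.0 (SE 0.44). The median of all tested genes in this test was 0.30 with TMM and 0.11 with size factors. The edgeR adjusted p was 0.217 for *Ccr7* and 0.434 for *Il7r*. Over the alternatives it ran from 0.00326, without a filter, to 0.648 for *Ccr7* and from 0.202 to 0.554 for *Il7r*. For each gene 3 of 6 *muMt*-/- TAM libraries lay above all WT TAM libraries. DESeq2 called 1 member, *Ccr7*, at -4.32 with an adjusted p that rounds to 0.05, against 0.106% of tested genes, and gave 4 of 8 an adjusted p. Without *muMt*-/- TAM replicate 3 the *Ccr7* difference was -1.80. The same test for GABA gave 0 of 8 members called by edgeR (0%), 0 at an unadjusted p under 0.05 (4.53%) and 0 called by DESeq2 (0%). Its values ran from -0.18 for *Slamf6* to 1.14 for *Tcf7*, and that of *Il7r* was 0.74 (SE 0.42).

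Set against TAMs of the same kind of mice, CD8+ T cells held a larger share of transcripts of the members, which were chosen as T cell genes. In WT mice edgeR called 6 of 8 members higher in CD8+ T cells (5.99% of tested genes were), in *muMt*-/- mice 5 of 8 (7.71%), and in GABA-treated mice 7 of 8 (7.93%). *Tcf7* was higher by a log2 fold change of 3.79 in WT mice, 3.40 in *muMt*-/- mice and 4.54 in GABA-treated mice (SE 0.50, 0.52 and 0.52), and the lowest of 6 CD8+ T cell libraries lay above the highest TAM library in each. *Lef1* was higher by 3.89, 2.91 and 3.85 (SE 0.59, 0.57 and 0.65), also without overlap. In TAMs alone *Lef1* was below the filter (mean normalized number 0.947, against 4.28 in CD8+ T cells). It was kept in this fit through CD8+ T cells, so its call is not independent of the filter. In GABA-treated mice *Lef1* rested on 26 molecules against 3, a ratio of 21.4 with a counting interval of 6.57 to 111. *Ccr7* had 79 molecules against 1 in WT mice, a ratio of 441 with a counting interval of 76.9 to 17649, and was higher by 3.58 and 4.58 in the other groups (SE 0.50 and 0.52). The largest edgeR adjusted p of these 3 genes was 7.05e-05, for *Lef1* in *muMt*-/- mice, where alternatives ran from 1.73e-05 to 0.00752. Without 1 TAM library, *Tcf7* was at 5.40 (*muMt*-/- replicate 5), *Lef1* at 4.49 (WT replicate 1), and *Ccr7* at 8.06 (WT replicate 6, which leaves WT TAMs with 0 molecules and a fit that rests on the prior count), 5.50 (*muMt*-/- replicate 3) and 6.31 (GABA-treated replicate 3).

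*S1pr1* was higher in CD8+ T cells by 2.5, 3.33 and 3.50 (SE 0.70, 0.74 and 0.71). It was at 4.47 without TAM WT replicate 1 and at 4.88 without GABA-treated TAM replicate 6. *Bach2* was higher by 2.25, 1.59 and 1.71 (SE 0.58, 0.49 and 0.56). The call of *Bach2* was lost without CD8+ T cell replicate 2 in *muMt*-/- mice (edgeR adjusted p 0.0145, then 0.0852) and in GABA-treated mice (0.0211, then 0.0628), and over all alternatives these values reached 0.38 and 0.378. *Il7r* was at 1.75 in WT mice and 1.49 in GABA-treated mice, both called, and at 0.75 in *muMt*-/- mice, where the edgeR adjusted p was 0.0735, with 5 of 6 CD8+ T cell libraries above all TAM libraries and a range over alternatives of 0.0274 to 0.428. It was called there with the replicate number as a block (edgeR adjusted p 0.0447). *Klf2* was at 0.80, 0.77 and 1.41, of which the last was called, and the first with DESeq2 size factors and in DESeq2. *Slamf6* was at 1.0, 1.09 and 0.91, none of them called by edgeR, at adjusted p of 0.289, 0.143 and 0.324. DESeq2 called 7, 5 and 7 members, against 1666, 1741 and 1773 of 8477 tested genes, higher and lower together. *Id3* was not tested, and its means were 1.05, 0.856 and 0.841 per 100000 in CD8+ T cells against 1.38, 0.616 and 0.578 in TAMs.

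These differences are shares of a library, and TAM libraries were the larger. The median of all tested genes was -0.36, -0.10 and -0.12 in the 3 comparisons under TMM, and -0.20, -0.13 and -0.16 under size factors. Counted per 100 cells, an alternative chosen after seeing the data, the median was -2.42, -1.11 and -1.25. On that scale *Tcf7*, *Lef1* and *Ccr7* were still called higher in CD8+ T cells in all 3 comparisons, and *S1pr1* in *muMt*-/- and GABA-treated mice. The call of *S1pr1* in WT mice was lost (edgeR adjusted p 0.517), as were those of *Bach2* in all 3 (0.753, 0.38 and 0.378). Also lost were *Il7r* in WT and GABA-treated mice (0.267 and 0.402) and *Klf2* in GABA-treated mice (0.488). *Klf2* turned to -1.42 in WT mice, called lower in CD8+ T cells (edgeR adjusted p 0.000181, with no further alternative run on that scale), and 4 of 6 CD8+ T cell libraries held fewer *Klf2* molecules than any TAM library. *Il7r* turned to -0.42 in WT and -0.34 in *muMt*-/- mice, and *Slamf6* to -1.08 in WT and -0.20 in GABA-treated mice. In molecules per library, the *Il7r* medians were 12.5, 14.5 and 21.5 in CD8+ T cells and 11, 18.5 and 15.5 in TAMs, which overlapped in every pair.

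**Figure D3:**
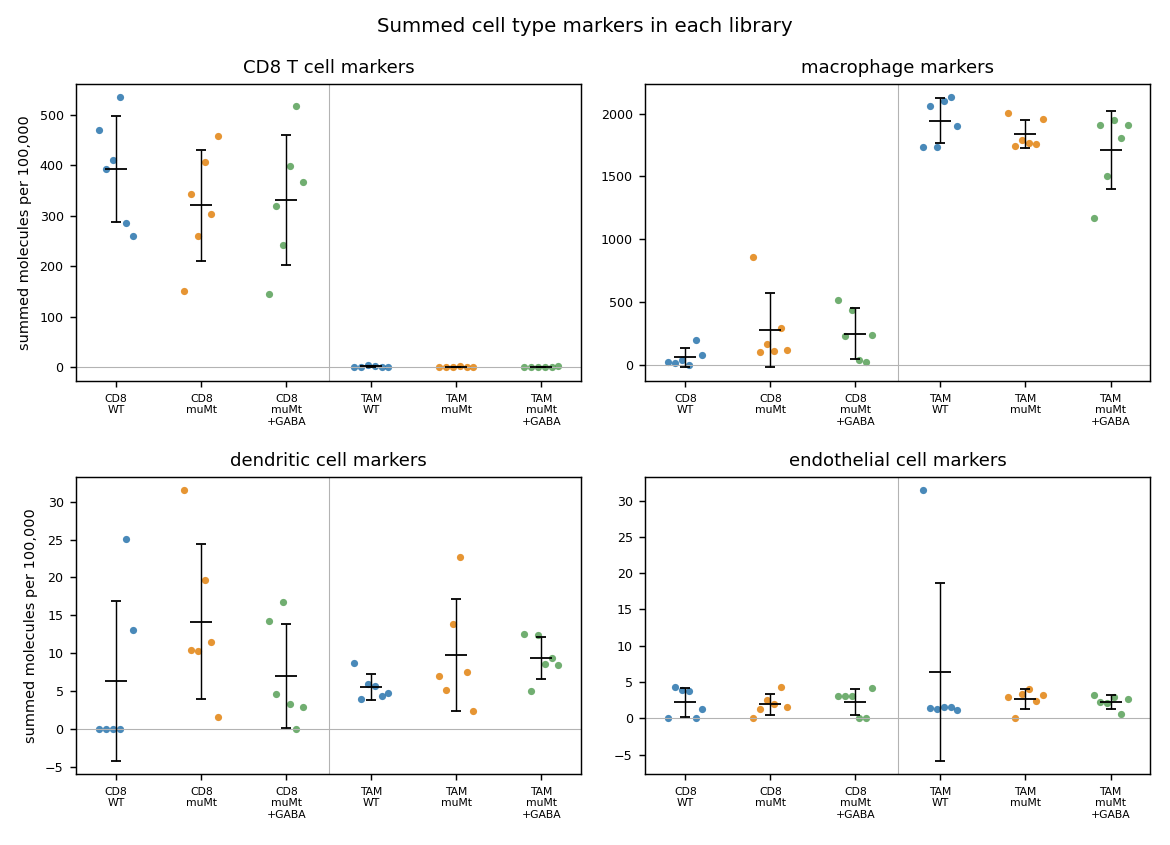
Summed level of markers of 4 cell types in each library (points, in molecules per 100000), with the mean ± SD of 6 libraries in each group. Macrophage markers reach 861 per 100000 in a CD8+ T cell library of *muMt*-/- mice, and endothelial markers reach 31.4 in a TAM library of WT mice.

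Other genes of naive and memory T cells were read beside the members, from a list of 25. In CD8+ T cells 22 were tested, and edgeR called 0 in each comparison, with 1, 3 and 1 at an unadjusted p under 0.05 (6.17%, 3.71% and 6.89% of all tested genes were). *Bcl2*, a survival gene that IL-7 signals maintain, was at -0.68 (SE 0.33) in *muMt*-/- against WT mice and at 0.90 (SE 0.30) with GABA. *Ly6c1*, a surface protein gene of memory cells, was at 0.92 and then -1.53 (SE 0.53 and 0.51). The list's median was -0.13, 0.26 and 0.07, and that of the members -0.25, -0.01 and -0.11, against 0.15, 0.03 and 0.21 for all tested genes. In TAMs 13 were tested and edgeR called 0 (2.05%, 0.0211% and 0.0739% of all tested genes). At an unadjusted p under 0.05 were 2, 0 and 0 (14.9%, 8.46% and 7.02%). These 2 were *Il6ra* at 0.70 (SE 0.24) and *Foxp1* at -0.49 (SE 0.21) in *muMt*-/- against WT mice. Against TAMs, 15, 16 and 15 of 22 were called higher in CD8+ T cells in the 3 kinds of mice (5.99%, 7.71% and 7.93% of all tested genes were) and 1, 2 and 1 lower (16.8%, 13.6% and 14.1%). Among the higher were *Satb1* at 5.75, 6.14 and 5.57 and *Ets1* at 3.88, 3.98 and 3.51. *Satb1*, *Dapl1*, *Ltb*, *Cd27*, *Cd28*, *S1pr4*, *Txk*, *Xcl1* and *Nsg2* were below the filter in TAMs alone. They were kept in this fit through CD8+ T cells, so their calls are not independent of the filter.

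Ligands, signalling partners and cofactors of the members made a list of 22. *Ccl19* and *Ccl21a*, the ligands of CCR7, were at 0 in all 36 libraries, which allows up to 0.26 molecules per 100000 over the CD8+ T cell libraries and 0.0819 over the TAM libraries, counting error alone considered. *Il7* was at 0 in CD8+ T cells and at 5 molecules in TAMs. Of 15 tested in CD8+ T cells and 16 in TAMs edgeR called 0. Of all tested genes it called 0% in each comparison of CD8+ T cells and 2.05%, 0.0211% and 0.0739% in TAMs. At an unadjusted p under 0.05 were 2, 0 and 1 in CD8+ T cells (6.17%, 3.71% and 6.89% of all tested genes) and 2, 1 and 0 in TAMs (14.9%, 8.46% and 7.02%). *Gnai2*, the G protein subunit through which CCR7 and S1PR1 signal, was at 0.69 (SE 0.26) in CD8+ T cells and 0.52 (SE 0.16) in TAMs of *muMt*-/- against WT mice. Its means were 43.9 and 65.5 per 100000 in CD8+ T cells of WT and *muMt*-/- mice and 107 and 151 in TAMs, and in the same CD8+ T cell libraries 17 of 17 macrophage markers were higher, with a median of 2.08. The part of macrophage RNA in the *Gnai2* value was not tested. *Jak1*, which carries the IL-7 signal, was higher in CD8+ T cells than in TAMs by 0.88, 0.80 and 1.04, and *Il2rg*, the partner chain of *Il7r*, by 1.03, 0.89 and 0.71. *Gnai2* was lower in CD8+ T cells, at -1.61, -1.42 and -1.09. In all, 4 of 15 were called higher in each kind of mice (5.99%, 7.71% and 7.93% of all tested genes were), and 3, 2 and 4 lower (16.8%, 13.6% and 14.1%). *Sh2d1b1*, among the lower, was below the filter in CD8+ T cells alone and was kept through TAMs.

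Effector genes, which as a rule run opposite to the members, made a list of 14. In CD8+ T cells 12 were tested and edgeR called 0, with 1, 0 and 4 at an unadjusted p under 0.05 (6.17%, 3.71% and 6.89% of all tested genes). *Havcr2*, an inhibitory receptor gene, was at 0.87 (SE 0.37) in *muMt*-/- against WT mice. In GABA-treated against WT mice *Gzmb* was at 0.50 (SE 0.22), *Prdm1*, the gene of a factor that opposes *Tcf7* and *Bach2*, at 1.47 (SE 0.64), *Cx3cr1* at 1.77 (SE 0.72) and *Irf4* at -0.97 (SE 0.45). *Cx3cr1* and *Prdm1* were at means of 2.41 and 1.93 per 100000 in CD8+ T cells of WT mice and at 21.5 and 5.26 in their TAMs, and in the same comparison 17 of 17 macrophage markers were higher, with a median of 1.91. The part of macrophage RNA in these values was not tested. In TAMs 8 were tested, with 3, 1 and 3 at an unadjusted p under 0.05 (14.9%, 8.46% and 7.02% of all tested genes). Of these, 2, 0 and 1 were higher. *Zeb2* alone was called, in *muMt*-/- against WT mice, where 2.05% of all tested genes were. It was at 1.09 (SE 0.21, edgeR adjusted p 0.00349), with mean levels of 69 and 33.1 per 100000. Against TAMs, 8 of 12 were called higher in CD8+ T cells in each kind of mice (5.99%, 7.71% and 7.93% of all tested genes were), and 3, 2 and 1 lower (16.8%, 13.6% and 14.1%). *Gzmb* was at 7.91, 8.19 and 8.46 and *Zeb2* at -2.51, -2.75 and -2.0. Of those called higher, *Tbx21*, *Gzma*, *Pdcd1* and *Irf4* were below the filter in TAMs alone. They were kept in this fit through CD8+ T cells, so their calls are not independent of the filter.

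Markers of further cell types were also read. CD4 T cell markers summed to 26.8 to 86.2 per 100000 in CD8+ T cells of *muMt*-/- mice and 34.8 to 59.8 in those of WT mice, with *Il2ra* the most abundant, and NK cell markers to 3.15 to 13.9 and 4.37 to 12.3, with *Ncr1* and *Klra8* at 0. Over the 18 CD8+ T cell libraries, *Il2ra* made up 350 of 600 CD4 T cell marker molecules, *Cd40lg* 17, and *Cd4* and *Foxp3* 4 each. *Ctla4* came to 47 molecules in WT mice, 107 in *muMt*-/- mice and 71 in GABA-treated mice. B cell markers summed to at most 4.35 per 100000 in any library. Tumour and stromal cell markers reached 161 per 100000 in CD8+ T cells and 629 in TAMs, with *Col3a1* the most abundant and *Krt18* and *Krt19* at 0. Between GABA-treated and untreated *muMt*-/- mice, 4 of 5 tumour and stromal cell markers tested in CD8+ T cells had an unadjusted p under 0.05 (3.71% of all tested genes did), and the median log2 fold change of the 5 was -1.27. Of the 4, 3 were lower with GABA and 1, *Cdh1*, was higher (1.76), with 17 of its 23 molecules in GABA-treated replicate 1. Of the CD4 T cell markers 2 of 5 were tested there and 1 had an unadjusted p under 0.05, of the NK cell markers 2 of 5 were tested and 0 did, and no B cell marker was tested. In that comparison 0 of these markers were called by edgeR or DESeq2.

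Across the 18 libraries of CD8+ T cells, levels of the members were compared by Pearson's r of log2 normalized numbers, as a description in which libraries share depth and group. The highest r among members was 0.573, for *Ccr7* with *Il7r*, and the lowest -0.317, for *Ccr7* with *Bach2*. *Tcf7* with *Lef1* was at 0.507, *Klf2* with *S1pr1* at 0.188 and *Tcf7* with *Ccr7* at -0.297 (n = 18). Among 1883 genes searched, those closest to *Tcf7* were *Vasp* (0.793), *Mndal* (0.766) and *Ezr* (0.757), and those closest to *Klf2* were *Cd69* (0.759), *Xiap* (0.748) and *Klf13* (0.703). For *Il7r* they were *Gimap8* (0.775), *Vps54* (0.741) and *Tpt1* (0.708), and for *Ccr7* *Rpl22* (0.743), *Plekha2* (0.732) and *Gbp4* (0.699).

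Promoter sequences from RefSeq (build GRCm38.p6, 250 bases before to 50 after a gene's start) were found for 7 of the 9 members, in 11 windows, and not for *Ccr7* and *S1pr1*. They were searched on both strands for the short motifs of the factors that these genes encode or answer to. CTTTGA (TCF and LEF factors) occurs in 16% of all 32851 promoters of the table, CCACCC (KLF) in 31.5%, TGTTTAC (FOXO) in 3.65%, TGACTCA (AP-1 and BACH) in 5.2% and TTCNNNGAA (STAT) in 8.3%. Among the 11 windows they occurred in 2, 6, 1, 0 and 2, that is in 2, 4, 1, 0 and 2 of the 7 genes. The first 2 windows of *Lef1* overlap and share their KLF match, which is counted in both. The windows of *Slamf6* and the first of *Tcf7* held none. Shown here are windows of 4 genes whose share of transcripts was called higher in CD8+ T cells than in TAMs in at least 2 kinds of mice and that hold a match to the motif of TCF, FOXO or STAT factors, with matches in capitals. A match describes the sequence and shows no binding.

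The fourth window of *Lef1* lies inside the gene and holds 2 TCF and LEF matches (chr3:131156044-131156343, plus strand).

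Lef1: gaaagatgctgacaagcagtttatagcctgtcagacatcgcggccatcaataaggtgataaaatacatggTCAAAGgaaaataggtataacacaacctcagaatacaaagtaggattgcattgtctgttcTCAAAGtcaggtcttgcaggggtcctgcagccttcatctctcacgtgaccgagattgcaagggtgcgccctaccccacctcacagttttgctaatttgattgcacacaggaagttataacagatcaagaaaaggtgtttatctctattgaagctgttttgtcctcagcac

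The window of *Bach2*, also inside the gene, holds 1 TCF and LEF match and 1 STAT match (chr4:32417185-32417484, plus strand).

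Bach2: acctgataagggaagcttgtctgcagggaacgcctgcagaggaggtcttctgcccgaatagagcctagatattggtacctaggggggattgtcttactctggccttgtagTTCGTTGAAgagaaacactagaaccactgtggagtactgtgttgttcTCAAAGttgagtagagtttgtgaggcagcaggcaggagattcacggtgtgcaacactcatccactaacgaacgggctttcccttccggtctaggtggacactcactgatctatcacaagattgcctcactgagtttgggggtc

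The second window of *Tcf7*, also inside the gene, holds 1 KLF match and 1 FOXO match (chr11:52282546-52282845, minus strand).

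Tcf7: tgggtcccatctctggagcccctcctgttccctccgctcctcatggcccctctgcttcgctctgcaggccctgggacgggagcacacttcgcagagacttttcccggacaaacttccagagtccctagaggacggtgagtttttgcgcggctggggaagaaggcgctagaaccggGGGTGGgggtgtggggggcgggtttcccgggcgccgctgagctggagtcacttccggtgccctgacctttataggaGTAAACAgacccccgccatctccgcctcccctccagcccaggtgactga

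The window of *Il7r*, whose product signals through STAT5, lies inside the gene too and holds 1 STAT match (chr15:9529827-9530126, minus strand).

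Il7r: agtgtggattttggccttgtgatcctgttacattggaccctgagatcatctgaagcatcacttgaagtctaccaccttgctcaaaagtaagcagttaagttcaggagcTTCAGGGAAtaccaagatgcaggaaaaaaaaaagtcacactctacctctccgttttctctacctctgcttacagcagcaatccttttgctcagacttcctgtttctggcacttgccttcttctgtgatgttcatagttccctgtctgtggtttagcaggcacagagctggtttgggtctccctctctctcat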

How the data were processed

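The values are the deposited counts of molecules per gene and library. The authors made them from molecular barcodes, with reads aligned to mm10 by STAR as the submitters' processing notes state. ERCC spike-in RNA was added to every tube, and its values were not used here. Genes were kept where the mean normalized number (DESeq2 size factors) exceeded 1, which left 6663 genes in CD8+ T cells, 9469 in TAMs and 8477 in all 36 libraries. Tests were the edgeR 4.0.16 quasi-likelihood test with TMM, with p-values adjusted by Benjamini-Hochberg over all genes tested, threshold 0.05, under R 4.3.3. Alternatives were DESeq2 size factors, the DESeq2 1.42.0 Wald test, no filter, the replicate number as a block, leaving out each library, and molecules per 100 cells. The edgeR fit was tested on simulated data. The members and lists were chosen with earlier results of these data known. Named genes were all 9 members and, of each list, genes past the threshold or otherwise up to 4 per comparison with the smallest p. Single genes of marker lists were named after their values were seen. Levels are molecules per 100000 molecules of the library, and counting intervals and floors cover counting error alone. No pair of libraries was identical, and the lowest chi-square per degree of freedom of a replicate pair was 1.179. Gene positions are from GENCODE vM21. Values of some listed genes are not reported here.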

Additional observations from a re-analysis of the deposited data

Results flagged for a closer look

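Each of these values lay far from the other 5 libraries of its group, by the gap to the nearest of them over the group's range. Chance sets apart about 1 in 20 groups. Here 14 of 108 groups were set apart, 7 of them among the 54 groups of members, where sparse counts leave most libraries at or near 0.

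Among the members, in molecules per 100000, *Tcf7* was at 4.34 in TAM *muMt*-/- replicate 5, where the others were at 0 to 0.648. *Ccr7* was at 6.21 in TAM *muMt*-/- replicate 3, at 4.3 in GABA-treated TAM replicate 3 and, from a single molecule, at 0.396 in TAM WT replicate 6. *S1pr1* was at 5.01 in TAM WT replicate 1 and at 1.77 in GABA-treated TAM replicate 6. *Id3* was at 5.14 in CD8+ T cell *muMt*-/- replicate 3, with the others at 0.

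Among the summed markers, those of macrophages were at 199 per 100000 in CD8+ T cell WT replicate 5 and at 861 in CD8+ T cell *muMt*-/- replicate 1. NK cell markers were at 19.9 in GABA-treated CD8+ T cell replicate 2 and at 1.18 in TAM *muMt*-/- replicate 5. Endothelial markers were at 31.4 in TAM WT replicate 1. Tumour and stromal cell markers were at 629 in TAM WT replicate 6 and at 321 in GABA-treated TAM replicate 2.

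In the fit of all 36 libraries, the change without B cells differed between CD8+ T cells and TAMs at an unadjusted p under 0.05 for *Ccr7*, by a log2 fold change of -3.66, and for *Il7r*, by -1.0. Fitted in each cell type alone, the changes were -0.23 in CD8+ T cells and 3.71 in TAMs for *Ccr7*, and -0.28 and 0.76 for *Il7r*. Neither passed after adjustment in the main edgeR fit, at 0.217 and 0.434. *Ccr7* passed without a filter (edgeR adjusted p 0.00326) and in DESeq2, at an adjusted p that rounds to 0.05.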

How the results depend on the processing

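Depth limits these results: members were read at 0 to 31 molecules per library, and *Id3* and *Lef1* fell below the filter in 1 cell type each. With size factors, the Wald test, no filter or the replicate number as a block, 313 of 352 member values kept their direction and side of the threshold, 6 passed it, 0 no longer did and 9 changed sign. DESeq2 gave 26 of the 352 no adjusted p, of which 24 kept their direction. Per 100 cells, a scaling that moved the median of all tested genes to -2.42, -1.11 and -1.25, 12 of 24 kept both, 1 passed, 7 no longer did and 6 changed sign, among them *Klf2* in WT mice, which passed, and *Il7r* in WT mice, which no longer did. In fits without 1 library, 2193 of 2298 kept both. The causes were not tested.

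With DESeq2 size factors, *Il7r* and *S1pr1* turned to -0.08 and -0.15 in GABA-treated minus WT CD8+ T cells, and *Slamf6* to -0.11 in the interaction of B cell loss. With the DESeq2 Wald test these were -0.08, -0.17 and -0.17, *S1pr1* was -0.01 in *muMt*-/- minus WT CD8+ T cells, and *Tcf7* was -0.31 in *muMt*-/- minus WT TAMs. Without a filter, *Klf2* was 0.03 in that interaction. Per 100 cells, chosen after seeing the data, CD8+ T cells minus TAMs gave *Il7r* -0.42, *Klf2* -1.42 and *Slamf6* -1.08 in WT mice, *Il7r* -0.34 and *Klf2* -0.25 in *muMt*-/- mice and *Slamf6* -0.20 in GABA-treated mice, with 7750, 4356 and 5386 genes called against 1928, 1810 and 1869.

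Counts of called genes in the 3 comparisons of CD8+ T cells were 72, 11 and 64 without a filter, and for GABA-treated minus WT 1 with size factors and 1 with the Wald test. In TAMs they were 343, 51 and 63 without a filter, and 60 and 14 with the Wald test for the comparisons with GABA. The interaction of B cell loss gave 0 with size factors, 9 with the Wald test and 79 without a filter, and that of GABA 17 without a filter. With the replicate number as a block, they were 2 and 1 for GABA minus no GABA and GABA-treated minus WT in CD8+ T cells, 4 for GABA minus no GABA in TAMs and 2 in the interaction of B cell loss. Libraries with the same number in CD8+ T cells had r of -0.394 to 0.45 and those in TAMs -0.208 to 0.119, and 4 of 36 libraries were most like a library of their own number. Between CD8+ T cells and TAMs of the same kind of mice r was -0.057 to 0.408 for 18 pairs of the same number, and 5 of 18 CD8+ T cell libraries were most like the TAM library of their number.

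Leaving out each library in turn gave 0 to 13, 0 to 1 and 0 to 2 called genes in the 3 comparisons of CD8+ T cells, 67 to 338, 2 to 36 and 2 to 9 in TAMs, and 0 to 9 and 0 to 2 in the interactions. For members whose sign changed, log2 fold changes ran as follows. In *muMt*-/- minus WT CD8+ T cells *Klf2* ran from -0.59 to 0.04, *S1pr1* from -0.25 to 0.31, *Slamf6* from -0.01 to 0.89 and *Bach2* from -0.13 to 0.29. With GABA minus no GABA *Ccr7* ran from -0.07 to 0.24 and *S1pr1* from -0.33 to 0.26. In GABA-treated minus WT *Tcf7* ran from -0.29 to 0.18, *Il7r* from -0.10 to 0.20, *Klf2* from -0.07 to 0.56, *S1pr1* from -0.17 to 0.13 and *Slamf6* from -0.84 to 0.00. In TAMs, *muMt*-/- minus WT, *Tcf7* ran from -1.95 to 0.62. With GABA minus no GABA in TAMs *Tcf7* ran from -1.25 to 1.12, *Klf2* from -0.21 to 0.10, *S1pr1* from -1.81 to 0.17 and *Id3* from -0.72 to 0.51, and in GABA-treated minus WT *Bach2* from -0.16 to 0.46. In the interaction of B cell loss *Tcf7* ran from -0.94 to 1.54, *Klf2* from -0.31 to 0.32, *S1pr1* from -1.12 to 1.26 and *Slamf6* from -0.42 to 0.48. In that of GABA *Tcf7* ran from -0.83 to 1.49, *Ccr7* from -0.81 to 2.65, *S1pr1* from -0.25 to 1.53, *Slamf6* from -0.44 to 0.33 and *Bach2* from -0.16 to 0.42.

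Calls that changed without 1 library were those of *Ccr7* in TAMs and *Bach2* given above. *Klf2* in WT CD8+ T cells minus TAMs passed in edgeR without CD8+ T cell replicate 6 or TAM replicate 3 or 4 (adjusted p 0.0154, 0.0452 and 0.0467), and in *muMt*-/- mice without CD8+ T cell replicate 5 (0.044). In WT mice it also passed with size factors (0.0365) and the Wald test (0.0176), and the range over these alternatives of the share was 0.0154 to 0.383, and 0.044 to 0.303 in *muMt*-/- mice. Per 100 cells the adjusted p was 0.000181, in the other direction, and 0.568. *Il7r* in *muMt*-/- mice passed in 9 of 36 such fits, and with the replicate number as a block. *Ccr7* had no value in TAMs without *muMt*-/- replicate 3, nor *S1pr1* without WT replicate 1, since each then fell below the filter.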
